A study of Mus musculus with 4 samples.

Results

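The genes described here encode glycosyltransferases and glycan sulfotransferases, the Golgi enzymes that build, cap and sulfate the sugar chains of glycoproteins, glycolipids and proteoglycans. They were taken by name: every row whose symbol starts with St3gal, St6gal (St6galnac included), St8sia, B3gnt, B3galt, B4galt, Galnt, Gcnt, Mgat, Chst or Fut, followed by a number. This gave 85 of the 21025 genes in the files. Natural killer (NK) cells of C57BL/6 mouse liver gave 2 RNA-seq libraries of TRAIL+ cells and 2 of CD49b+ cells, made from polyadenylated RNA. Both subsets were sorted as TCRb-, NK1.1+ and NKp46+ cells. TRAIL+ cells carried the death ligand TRAIL and lacked CD49b, and CD49b+ cells carried this integrin chain and lacked TRAIL. No allele, agent or time point is named for either group, and the sources used here give no age, sex or pooling of mice. The series title concerns the need of NK cell development for Nfil3, a bZIP transcription factor. Whether the libraries of a subset come from different mice is not in the labels; the spread behind each p-value is that of these libraries and may be technical.

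Sugar chains are extended 1 residue at a time, and each step needs an enzyme that recognises the acceptor, a nucleotide sugar donor and the linkage to be made. Sialic acids, fucose and sulfate usually come last, and they form the epitopes read by selectins, siglecs and many antibodies. In leukocytes a core 2 branched O-glycan that carries sialic acid and fucose is the classical ligand of selectins, and gangliosides, the sialylated glycolipids of the cell surface, begin with GM3.

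Levels are RPKM, a read count divided by gene length and by library size, as deposited by the authors. Whole reads could be worked out from their steps, with inferred library totals of 3786497 to 4232967 reads. On these totals a gene of 2000 bases at 1 RPKM had 7.57 to 8.47 reads. In each library the recovered reads summed over rows to more than its inferred total (4068315 to 4557083 reads). NK genes were abundant in both subsets, with Gzma at 6309 and 10862 RPKM in TRAIL+ replicates 1 and 2 and at 9632 and 11905 RPKM in CD49b+ replicates 1 and 2. Of 6 NK cell genes, all tested, 1 passed: Prf1, the gene of perforin, was lower in TRAIL+ libraries (331 and 308 against 1872 and 1802 RPKM). Markers of T cells moved with the subset: of 7 list genes 5 were tested and all 5 were higher in TRAIL+ cells, none was at 0 in all 4 libraries, and the summed level was 72.6 to 134 RPKM in TRAIL+ and 14.7 to 17.3 RPKM in CD49b+ libraries. Cd3d was at 29.99 and 59.9 RPKM in TRAIL+ and at 10.4 and 10.1 RPKM in CD49b+ libraries, and Cd3e at 21.3 and 43.2 against 2.62 and 3.87 RPKM. Of 7 hepatocyte genes Trf alone passed, higher in TRAIL+ libraries (83.1 and 96.9 against 21.2 and 22.1 RPKM), while Alb followed the replicate number, at 12.7 and 1.92 RPKM in TRAIL+ and 14.8 and 0.865 RPKM in CD49b+ replicates 1 and 2. Sums over the hepatocyte list were 102 to 103 RPKM in TRAIL+ and 23.4 to 46.2 RPKM in CD49b+ libraries. Trf made most of the TRAIL+ sums, so the difference in these sums largely repeats that gene. Of 5 dendritic cell genes Xcr1 alone was tested, and it was higher in TRAIL+ libraries (2.98 and 3.20 against 0.106 and 0.0571 RPKM). The list summed to 3.73 to 4.49 RPKM in TRAIL+ and 1.001 to 3.52 RPKM in CD49b+ libraries. Xcr1 made most of the TRAIL+ sums but little of the CD49b+ sums, so these sums do not show the rest of the list higher in TRAIL+. The Kupffer cell and monocyte, neutrophil and red cell lists were likewise higher in replicate 1 of both subsets, with Kupffer cell and monocyte sums of 104 and 23.0 RPKM in TRAIL+ and 139 and 15.0 RPKM in CD49b+ libraries. The part of these markers in the enzyme results below was not tested. In sorted populations like these, fewer cells that express a gene and less RNA per cell cannot be told apart.

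Of the 85 enzyme genes, 21 were listed at 0 in all 4 libraries, 19 were above 0 but too low to test, and 45 reached 1 RPKM in at least 2 libraries and were tested. In TRAIL+ cells 8 of the 45 were higher and 4 were lower at an adjusted p of 0.05 (limma on log2(RPKM + 1), Benjamini-Hochberg over all genes), and 33 did not pass. That is 26.7% of the tested enzyme genes, beside 8.62% of all 10047 genes tested, of which 4.76% were higher and 3.86% lower. The enzyme genes were chosen with earlier results of these data known, so such shares, here and below, are description only. The median size of the log2 difference, whatever its sign, was 0.52 for the enzymes and 0.24 for all genes. Both medians include genes that entered the test only through the subset where they were high. They are therefore not read as a trait of the enzymes. The enzymes that were higher act on branching (Gcnt1, Gcnt2, Mgat4b), on galactose addition (B3galt5), on sialylation (St3gal5, St6galnac3, St8sia4) and on sulfation (Chst15). Those that were lower start O-glycans (Galnt3), start a class of glycolipids (B3gnt5), or finish selectin ligands (St3gal4, Fut7).

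Some of these genes entered the test only because they were high in 1 subset. Of the 45 tested, 9 were at 1 RPKM or more in both libraries of 1 subset but not in all 4 libraries, and 7 of these 9 were called. The other 36 were at that level in all 4 libraries, and 5 of them (13.9%) were called, Mgat4b, St8sia4, Gcnt1, St3gal4 and B3gnt5, beside 6.45% of the 9076 genes of that kind. Over all genes tested 866 were called, 585 of them among those 9076. Tested genes below that level in some library were thus called more often than 6.45% over all genes too. The 7 of 9 is therefore not read as a trait of the enzymes. Without CD49b+ replicate 1, 8 of the 12 calls were kept, and without CD49b+ replicate 2, 7 were kept. Without either TRAIL+ library in turn all 12 were kept.

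**Figure D1:**
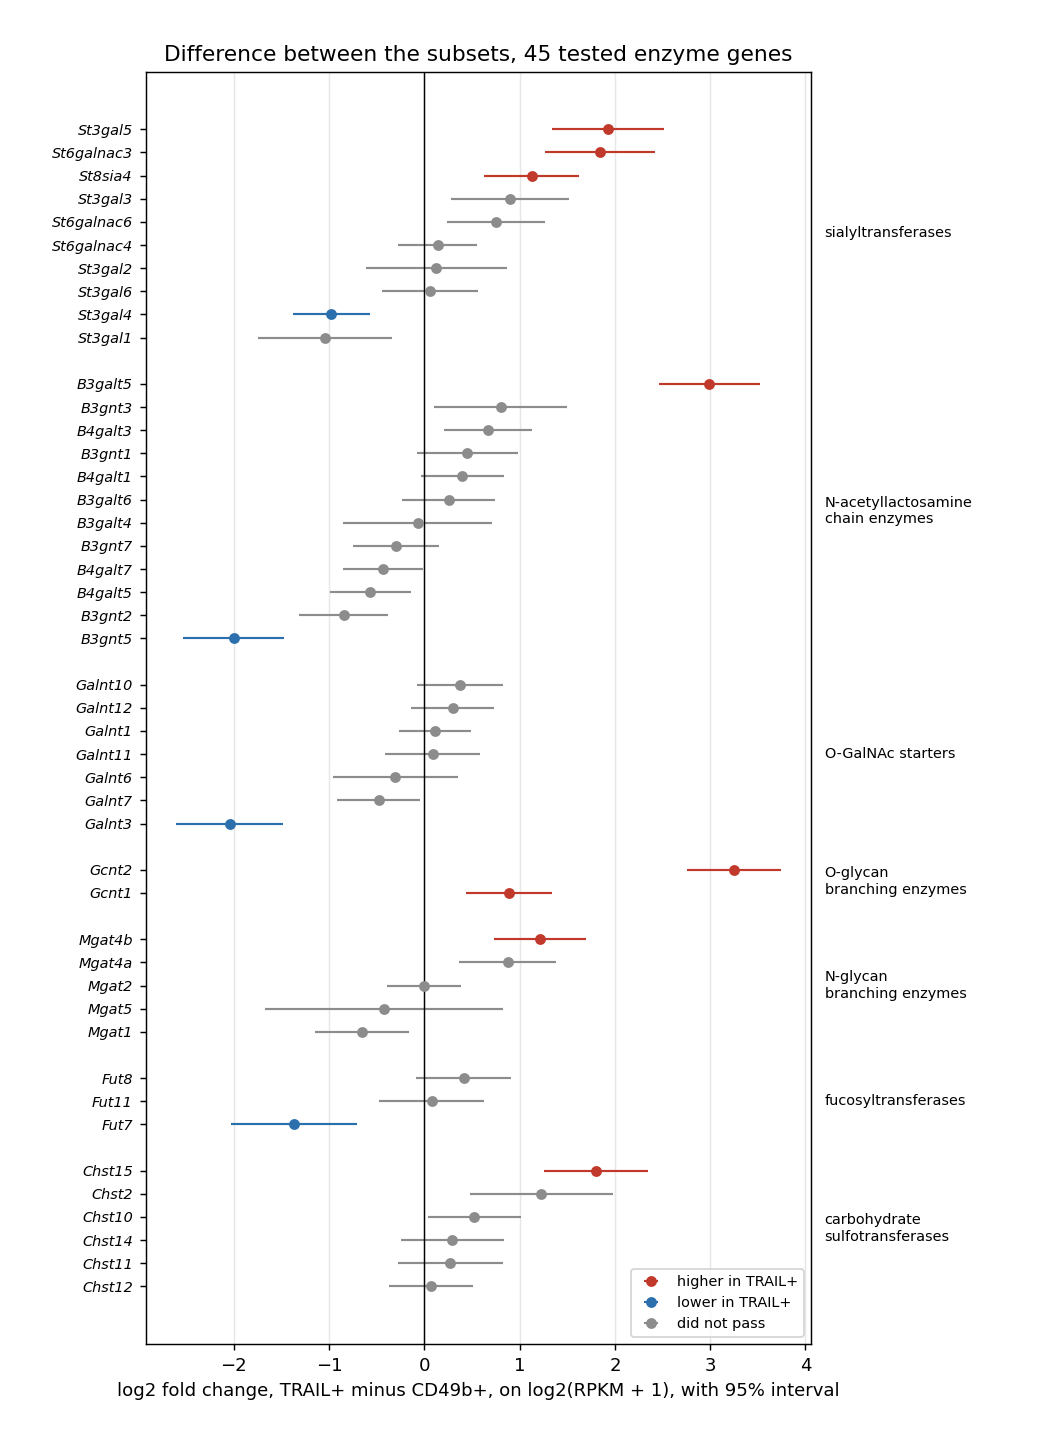
Log2 difference, TRAIL+ minus CD49b+, on log2(RPKM + 1) (x axis) for each of the 45 tested enzyme genes (y axis, grouped by enzyme class); points are limma estimates and bars their 95% intervals, red for genes higher in TRAIL+, blue for genes lower, grey for genes that did not pass. The 8 higher genes range from 0.89 for Gcnt1 to 3.25 for Gcnt2 and the 4 lower ones from -0.98 for St3gal4 to -2.04 for Galnt3.

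**Figure D2:**
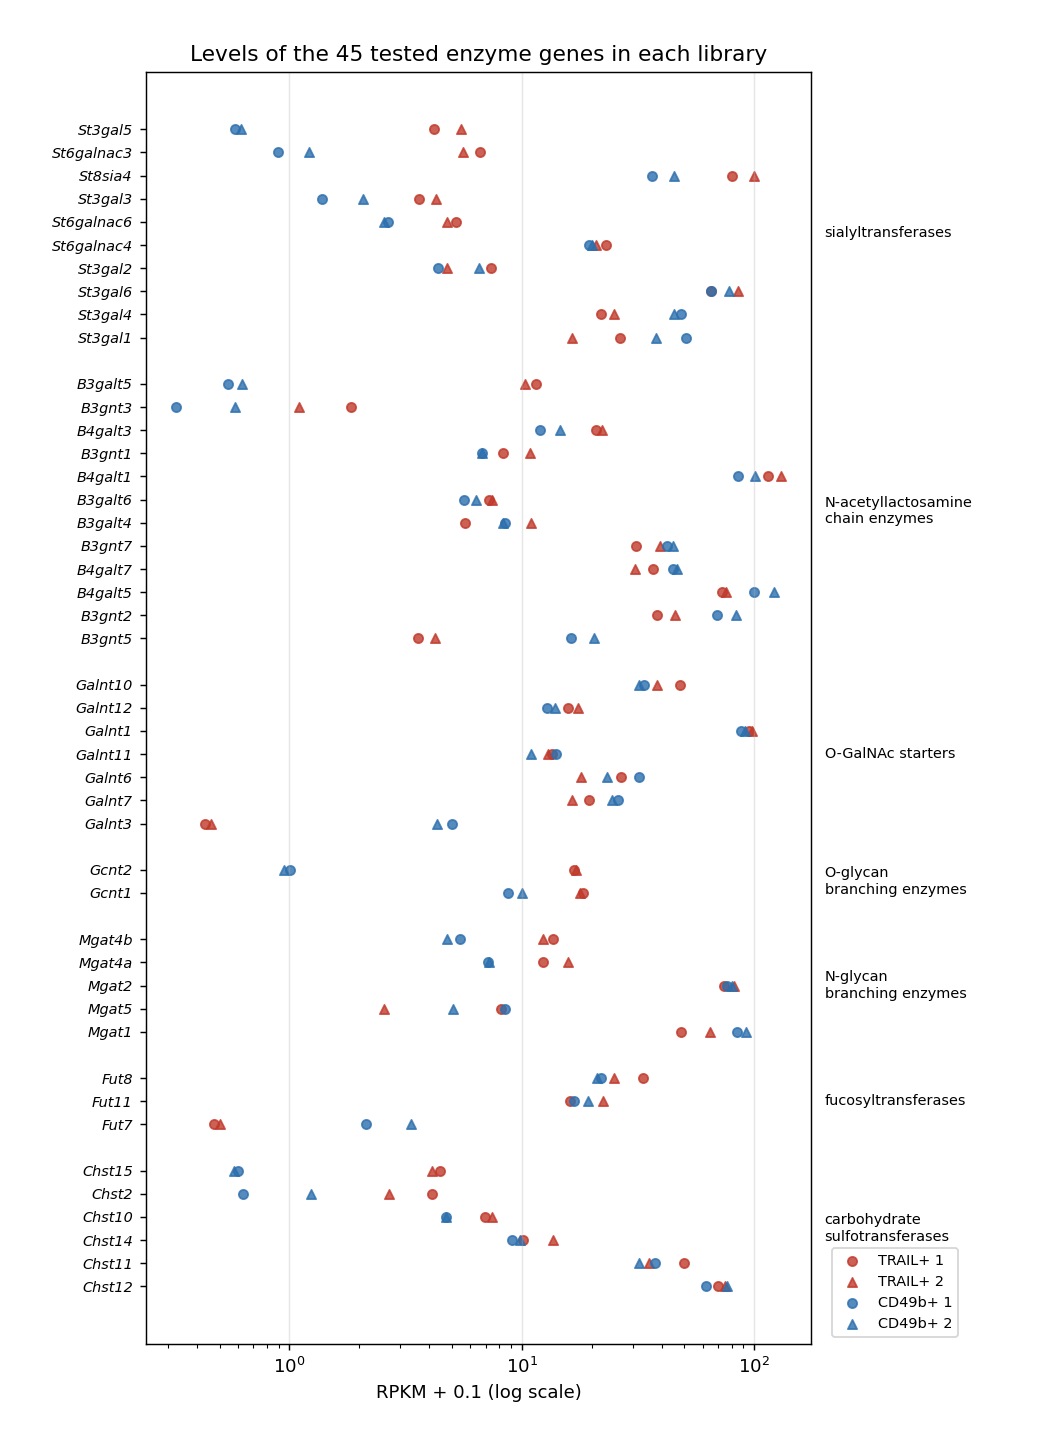
RPKM + 0.1 on a log scale (x axis) of the same 45 genes (y axis), 1 symbol per library, red for TRAIL+ and blue for CD49b+, circles for replicate 1 and triangles for replicate 2. Among abundant enzymes Galnt1, Mgat2 and Chst12 lie close together in the subsets and St8sia4, B3gnt2, Mgat1 and B4galt5 lie apart, while Gcnt2, B3galt5, Galnt3, Chst15 and St3gal5 are at or above 4 RPKM in 1 subset and below 1 RPKM in the other.

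The sialyltransferases were 20 genes, of which 10 were tested, 3 were higher in TRAIL+ cells, 1 was lower and 6 did not pass. St8sia4 encodes a polysialyltransferase, which adds long alpha-2,8 sialic acid chains to a few carrier proteins. It was the most abundant sialyltransferase gene of the TRAIL+ libraries, at 80.3 and 99.8 RPKM, against 36.2 and 45.2 RPKM in CD49b+ libraries. Both TRAIL+ values lay well above both CD49b+ values. The means were 90.1 ± 13.8 and 40.7 ± 6.35 RPKM (SD, n = 2 each, as for all means below), a 2.21-fold difference, with a log2 difference of 1.13 ± 0.20 (SE) and a limma adjusted p of 0.0265. This call was lost when a CD49b+ library was left out (adjusted p = 0.269 without replicate 1 and 0.103 without replicate 2). The carrier genes on the list were near 0: Ncam1, whose product is the best known polysialylated protein, was at 0 and 0.0279 RPKM in TRAIL+ and at 0 in both CD49b+ libraries, and Nrp2 at 0.0905 and 0 RPKM against 0.638 and 0.906 RPKM. The other alpha-2,8 sialyltransferase genes, St8sia1, St8sia2, St8sia3, St8sia5 and St8sia6, stayed below the level needed for a test.

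Sialyltransferases that put sialic acid on galactose in alpha-2,3 linkage moved in opposite directions. St3gal4, which caps galactose at the end of N-acetyllactosamine chains and contributes to selectin ligands, was at 21.9 and 24.7 RPKM in TRAIL+ and at 48.4 and 45.1 RPKM in CD49b+ libraries. Its level was thus lower in both TRAIL+ libraries, 23.3 ± 1.99 against 46.8 ± 2.32 RPKM, a 2.01-fold difference (log2 difference -0.98 ± 0.16, limma adjusted p = 0.0213). Leaving out CD49b+ replicate 1 (adjusted p = 0.281) or replicate 2 (0.206) ended this call. St3gal1, which caps the simplest O-glycans, had the largest log2 difference among the sialyltransferases below 0, at -1.04 ± 0.28, but did not pass (limma adjusted p = 0.0961). Its values were 26.4 and 16.3 RPKM in TRAIL+ and 50.9 and 37.7 RPKM in CD49b+ libraries, lower in replicate 2 of each subset. It passed without TRAIL+ replicate 1 (adjusted p = 0.00718) but not without TRAIL+ replicate 2 (0.0996), CD49b+ replicate 1 (0.519) or CD49b+ replicate 2 (0.170). St3gal6, a further enzyme for N-acetyllactosamine ends, was at 65.0 and 85.3 RPKM in TRAIL+ and 65.4 and 78.04 RPKM in CD49b+ libraries, overlapping, with a 95% interval of the log2 difference from -0.45 to 0.57. St3gal2 and St3gal3 did not pass either.

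St3gal5 encodes GM3 synthase, which adds sialic acid to lactosylceramide and so opens the ganglioside pathway. It was at 4.10 and 5.38 RPKM in TRAIL+ and at 0.481 and 0.518 RPKM in CD49b+ libraries. The TRAIL+ libraries held 91 of its reads and the CD49b+ libraries 10. The means, 4.74 ± 0.903 and 0.499 ± 0.0259 RPKM, differed 9.49-fold (log2 difference 1.93 ± 0.24, limma adjusted p = 0.00812), and the call was kept without either CD49b+ library (0.0329 and 0.0263). B3gnt5 encodes lactotriaosylceramide synthase, which adds N-acetylglucosamine to the same acceptor, lactosylceramide, and so opens the lacto and neolacto glycolipids. It went the other way, at 3.47 and 4.11 RPKM in TRAIL+ and 16.2 and 20.3 RPKM in CD49b+ libraries. TRAIL+ cells were 4.80-fold lower, 3.79 ± 0.453 against 18.2 ± 2.90 RPKM (log2 difference -1.999 ± 0.21, limma adjusted p = 0.00488), again with the call kept without CD49b+ replicate 1 (0.0186) or replicate 2 (0.0355). The ratio of St3gal5 to B3gnt5 RPKM, chosen after the values were seen, was 1.18 and 1.31 in TRAIL+ and 0.0297 and 0.0255 in CD49b+ libraries. Because both genes were already called, in opposite directions, this ratio repeats those calls and adds no support to them. B4galt5 and B4galt6, which make the shared acceptor, were at 72.5 and 75.4 against 99.9 and 121 RPKM for B4galt5, which did not pass (limma adjusted p = 0.131), and at most 0.525 RPKM for B4galt6.

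The promoters of these genes are shown because they share an acceptor and moved in opposite directions. The windows are the 250 bases before the transcript start in RefSeq on build GRCm38.p6, 5′ to 3′ on the strand of the gene, which is the plus strand for both, at chr6:72097358-72097607 for St3gal5 and chr16:19759984-19760233 for B3gnt5. Capitals mark matches to the GC box letters GGGCGG on either strand.
St3gal5: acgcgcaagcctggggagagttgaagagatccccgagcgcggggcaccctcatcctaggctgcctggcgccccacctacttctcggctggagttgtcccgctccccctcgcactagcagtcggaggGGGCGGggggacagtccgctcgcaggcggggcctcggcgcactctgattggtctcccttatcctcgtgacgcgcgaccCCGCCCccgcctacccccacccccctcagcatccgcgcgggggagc
B3gnt5: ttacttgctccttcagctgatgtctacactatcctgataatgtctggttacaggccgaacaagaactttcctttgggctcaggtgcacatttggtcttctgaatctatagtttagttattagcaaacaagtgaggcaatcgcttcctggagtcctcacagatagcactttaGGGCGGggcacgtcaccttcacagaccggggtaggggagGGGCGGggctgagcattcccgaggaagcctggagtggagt
The St3gal5 window is 71.6% G and C and the B3gnt5 window 51.2%, beside a median of 52.4% over all 32851 RefSeq windows. Both hold GC box letters, which 32.7% of all windows hold. Of the 19 windows of called genes, these included, 10 hold them, from 9 genes, so the letters are not particular to this pair. This motif was added after the windows were seen, and no test of its share was made. Letters of factor families active in NK cells were searched on both strands in the 19 windows of the 11 called genes that have one. The T-box letters GGTGTGA (in 3.33% of all windows) and the ETS letters CCGGAAG (6.91%) were in 0 of them, and the RUNX letters TGTGGTT (4.4%) were in 1, a window of St8sia4. A match describes the letters and is not a site shown to be bound.

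The third sialyltransferase gene that was higher in TRAIL+ cells was St6galnac3, whose product adds alpha-2,6 sialic acid to N-acetylgalactosamine in gangliosides and short O-glycans. It was at 6.503 and 5.499 RPKM in TRAIL+ and at 0.789 and 1.11 RPKM in CD49b+ libraries, with no overlap. The 6.31-fold difference, 6.00 ± 0.710 against 0.950 ± 0.227 RPKM, gave a log2 difference of 1.85 ± 0.23 and a limma adjusted p of 0.00837. St6galnac4 and St6galnac6 did not pass, with log2 differences of 0.14 and 0.75. St6gal1, the main alpha-2,6 sialyltransferase of N-glycans, was not tested: it was at 0.820 and 0.706 RPKM in TRAIL+ and 0.999 and 0.283 RPKM in CD49b+ libraries. The 6 alpha-2,3 sialyltransferase genes summed to 128 and 141 RPKM in TRAIL+ and 171 and 170 RPKM in CD49b+ libraries, and the 6 alpha-2,8 genes to 80.5 and 99.8 against 36.5 and 45.4 RPKM. All 20 together were near level, at 244 and 272 against 231 and 239 RPKM.

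The beta-galactosyltransferase and beta-1,3 N-acetylglucosaminyltransferase genes, here grouped as enzymes of the N-acetyllactosamine chain, numbered 21. Of these 12 were tested, 1 was higher in TRAIL+ cells (B3galt5), 1 was lower (B3gnt5) and 10 did not pass. B3galt5 encodes a beta-1,3 galactosyltransferase that makes type 1 chains. Its level was 11.4 and 10.2 RPKM in TRAIL+ and 0.443 and 0.524 RPKM in CD49b+ libraries, and this 22.4-fold difference was the largest ratio among the called enzymes. The means were 10.8 ± 0.863 and 0.484 ± 0.0576 RPKM, from 454 and 21 reads, with a log2 difference of 2.99 ± 0.21 and a limma adjusted p of 0.00151. B3galt1 was listed at 0, and of the rest of its family B3galt4, an enzyme of complex gangliosides, and B3galt6, an enzyme of the proteoglycan linker, did not pass (log2 differences -0.07 and 0.26). With these genes and B4galt5 in it, the class is wider than its name, and its sum does not measure lactosamine chain enzymes alone.

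B4galt1, the main galactosyltransferase of N-glycans, was the most abundant of the 85 genes by its mean. It was at 115 and 130 RPKM in TRAIL+ and at 85.5 and 101 RPKM in CD49b+ libraries, and did not pass (log2 difference 0.40 ± 0.17, limma adjusted p = 0.302). B3gnt2, the main extender of poly-N-acetyllactosamine, lay close to the threshold. Its values of 38.0 and 45.7 RPKM in TRAIL+ were both below those of CD49b+ libraries, 68.8 and 83.1 RPKM. It had a log2 difference of -0.85 ± 0.19 and a limma adjusted p of 0.0538, and it passed without TRAIL+ replicate 1 (0.0433) or replicate 2 (0.0185) but not without CD49b+ replicate 1 (0.244) or replicate 2 (0.497). The 9 B3gnt genes summed to 83.8 and 101 RPKM in TRAIL+ and to 135 and 157 RPKM in CD49b+ libraries, and the 7 B4galt genes to 245 and 259 against 243 and 284 RPKM, which overlapped. The row named B3gnt1 in the files is B4gat1 in RefSeq, a glucuronyltransferase of dystroglycan, and did not pass.

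O-glycans of the mucin type are started by the polypeptide N-acetylgalactosaminyltransferases. Of 11 such genes 7 were tested, and Galnt3 alone passed. Galnt3 was at 0.332 and 0.357 RPKM in TRAIL+ and 4.92 and 4.20 RPKM in CD49b+ libraries, from 10 and 138 reads. TRAIL+ cells were 13.2-fold lower, 0.345 ± 0.0177 against 4.56 ± 0.513 RPKM (log2 difference -2.04 ± 0.23, limma adjusted p = 0.00549), and the call was kept without either CD49b+ library (0.0212 and 0.00981). Galnt1, the most abundant starter, was at 95.4 and 97.9 RPKM in TRAIL+ and 87.4 and 91.0 RPKM in CD49b+ libraries, with a 95% interval of the log2 difference from -0.26 to 0.49. Galnt10, the next, was at 48.05 and 38.2 against 33.6 and 32.0 RPKM and did not pass (limma adjusted p = 0.349). Galnt3 thus made a small part of the class, whose sum overlapped between the subsets, at 219 and 201 RPKM in TRAIL+ and 210 and 199 RPKM in CD49b+ libraries.

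Branches are added to O-glycans and to lactosamine chains by the Gcnt enzymes, and this class of 4 genes had the largest shift in summed level. Gcnt3 was listed at 0, Gcnt7 was at most 0.221 RPKM, and both tested genes were higher in TRAIL+ cells. Gcnt2, the I-branching enzyme, which turns linear poly-N-acetyllactosamine into its branched form, was at 16.6 and 17.1 RPKM in TRAIL+ and 0.904 and 0.851 RPKM in CD49b+ libraries. The replicates of each subset were close, and the difference between subsets was 19.2-fold, 16.8 ± 0.348 against 0.878 ± 0.0372 RPKM, from 830 and 45 reads (log2 difference 3.25 ± 0.20, limma adjusted p = 0.000916). Its row pools 3 transcript accessions, so the isoforms of this gene were not told apart. Gcnt1, the core 2 enzyme that opens the branch on which selectin ligands are built, was at 18.2 and 17.7 RPKM in TRAIL+ and 8.58 and 9.93 RPKM in CD49b+ libraries. Its difference was smaller, 1.94-fold, 18.0 ± 0.356 against 9.26 ± 0.951 RPKM (log2 difference 0.89 ± 0.18, limma adjusted p = 0.0416). Gcnt1 no longer passed when CD49b+ replicate 1 (adjusted p = 0.467) or replicate 2 (0.279) was left out, or with no filter on low values (0.0656). The class sum was 35.03 and 34.8 RPKM in TRAIL+ and 9.49 and 10.9 RPKM in CD49b+ libraries, and Gcnt2 took 47.4% and 49.1% of it in TRAIL+ but 9.53% and 7.81% in CD49b+ libraries.

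**Figure D3:**
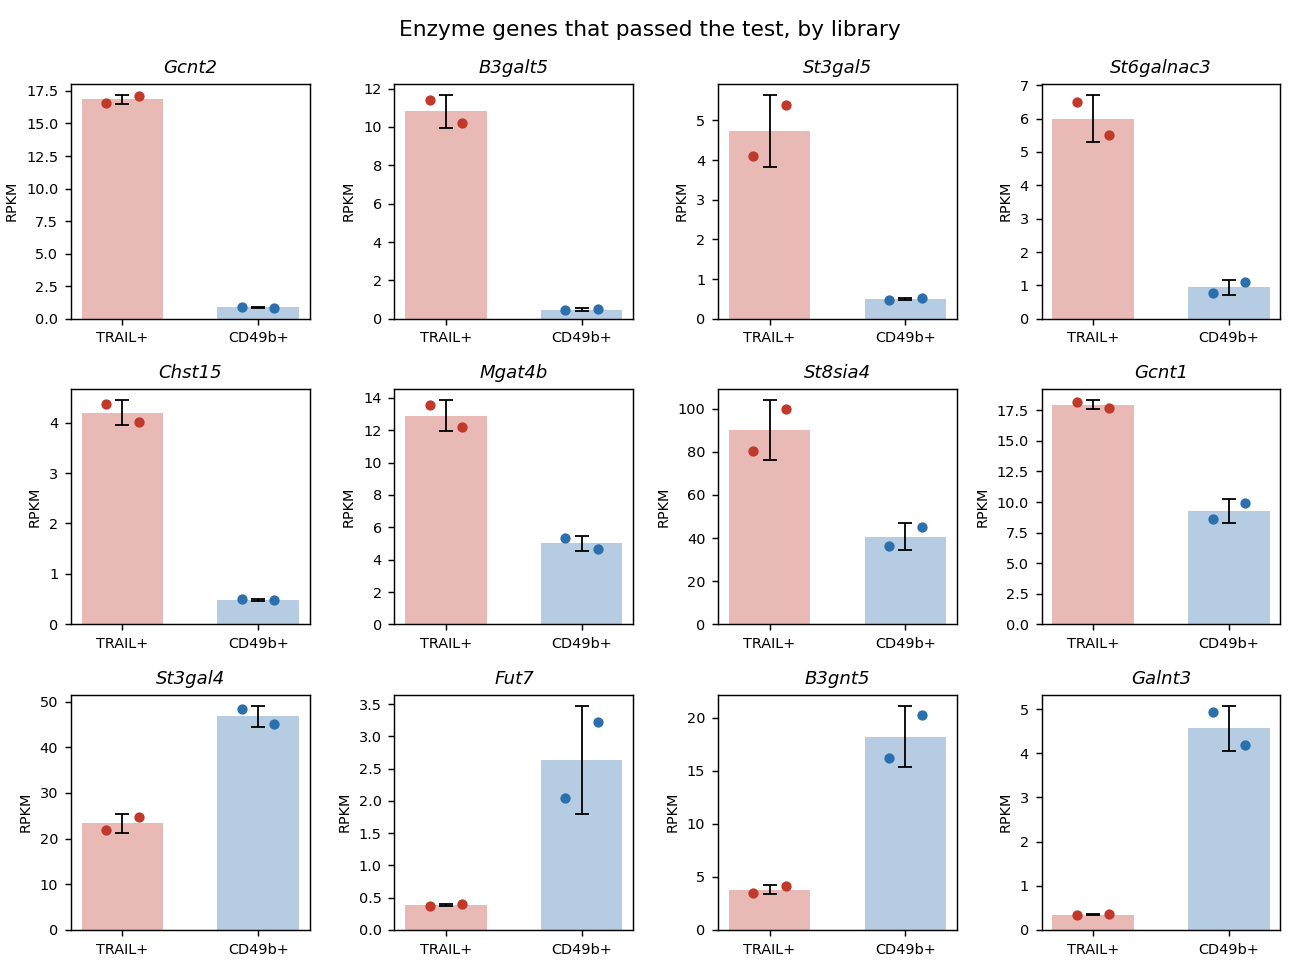
RPKM (y axis, from 0, own scale in each panel) of the 12 called enzyme genes in TRAIL+ (red) and CD49b+ (blue) libraries; points are libraries, bars the means of 2 libraries and black lines ± SD. In each panel both libraries of 1 subset lie above both of the other, from Gcnt2 (16.6 and 17.1 against 0.904 and 0.851) to Galnt3 (0.332 and 0.357 against 4.92 and 4.20). The genes are shown because they were called, so this separation adds no support. Some genes that did not pass, such as B4galt1 and Mgat1, did not overlap either.

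N-glycan branching genes (Mgat) numbered 8, of which 5 were tested and Mgat4b alone passed. Mgat4b encodes N-acetylglucosaminyltransferase IVb, which adds a beta-1,4 branch. It was at 13.6 and 12.2 RPKM in TRAIL+ and at 5.32 and 4.68 RPKM in CD49b+ libraries, 2.58-fold higher in TRAIL+ cells (12.9 ± 0.959 against 4.999 ± 0.449 RPKM, log2 difference 1.21 ± 0.19, limma adjusted p = 0.0184). The call was lost without CD49b+ replicate 1 (0.136) or replicate 2 (0.207). Mgat4a, which makes the same branch, was at 12.3 and 15.7 RPKM in TRAIL+ and 7.08 and 7.12 RPKM in CD49b+ libraries. Its log2 difference of 0.88 ± 0.20 did not pass (limma adjusted p = 0.0628), and of the fits with 1 library left out it passed without TRAIL+ replicate 1 (0.0221) but not without TRAIL+ replicate 2 (0.107), CD49b+ replicate 1 (0.437) or CD49b+ replicate 2 (0.415).

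Mgat1, which makes the first step from oligomannose to complex N-glycans, and Mgat2, which makes the second branch, were the abundant members. Mgat1 was at 48.4 and 64.4 RPKM in TRAIL+ and 84.5 and 92.6 RPKM in CD49b+ libraries, and did not pass (log2 difference -0.65 ± 0.20, limma adjusted p = 0.128). It passed without TRAIL+ replicate 2 (0.0207) but not without TRAIL+ replicate 1 (0.118), CD49b+ replicate 1 (0.568) or CD49b+ replicate 2 (0.683). Mgat2 was level, at 74.0 and 82.2 against 76.4 and 80.0 RPKM, with a 95% interval of the log2 difference from -0.39 to 0.39. Mgat5, which adds the beta-1,6 branch extended by lactosamine chains, varied more between replicates than between subsets, at 8.02 and 2.45 RPKM in TRAIL+ and 8.40 and 4.97 RPKM in CD49b+ libraries.

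Fucosyltransferase genes numbered 8, of which 3 were tested. Fut7 adds the alpha-1,3 fucose that completes sialyl Lewis x, the selectin epitope. It was at 0.374 and 0.402 RPKM in TRAIL+ and 2.04 and 3.23 RPKM in CD49b+ libraries, a low level in both, from 6 and 42 reads. The ratio of reads per total was 6.74 (exact 95% interval 2.85 to 19.4, counting error only). The RPKM means, 0.388 ± 0.0199 and 2.63 ± 0.840, differed 6.78-fold, with a log2 difference of -1.37 ± 0.27 and a limma adjusted p of 0.0361. It no longer passed without CD49b+ replicate 2 (adjusted p = 0.126) or in a voom fit of the recovered reads (0.0534). Fut8, the core fucosyltransferase of N-glycans, was at 33.3 and 24.8 against 21.7 and 20.9 RPKM, and Fut11 at 16.0 and 22.3 against 16.7 and 19.1 RPKM. Neither passed. Fut4, which can also make Lewis x structures, was below the level for a test (0.129 to 0.536 RPKM), and Fut1, Fut2 and Fut10 were listed at 0.

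Carbohydrate sulfotransferase genes numbered 13, of which 6 were tested, 1 was higher in TRAIL+ cells and 6 were listed at 0. Chst15 adds a second sulfate to N-acetylgalactosamine 4-sulfate of chondroitin and so makes its highly sulfated E form. It was at 4.37 and 4.02 RPKM in TRAIL+ and 0.498 and 0.476 RPKM in CD49b+ libraries, from 141 and 17 reads. The subsets differed 8.61-fold (4.19 ± 0.248 against 0.487 ± 0.0152 RPKM, log2 difference 1.80 ± 0.22, limma adjusted p = 0.00782), and the call was kept without either CD49b+ library (0.0353 and 0.0313). Chst12 and Chst11, which place the 4-sulfate itself, were abundant and overlapped between the subsets. Chst12 was at 69.6 and 74.6 against 61.7 and 76.4 RPKM (95% interval of the log2 difference -0.37 to 0.51), and Chst11 at 50.04 and 35.2 against 37.5 and 32.0 RPKM (-0.28 to 0.83). Chst2, which sulfates N-acetylglucosamine in selectin ligands, was at 4.01 and 2.58 RPKM in TRAIL+ and 0.530 and 1.14 RPKM in CD49b+ libraries. It did not pass (log2 difference 1.23 ± 0.30, limma adjusted p = 0.0722), and it passed without TRAIL+ replicate 2 (0.0276) but not without TRAIL+ replicate 1 (0.0866), CD49b+ replicate 1 (0.381) or CD49b+ replicate 2 (0.0922).

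Summed over a whole class, 6 of the 7 classes differed less between the subsets than any called gene did, though genes are called because they differ. The exception was O-glycan branching, the Gcnt genes. Its 2 tested genes were both called higher, so its sum repeats those calls. The ratio of mean summed RPKM, TRAIL+ over CD49b+, was 1.10 for sialyltransferases, 0.875 for lactosamine chain enzymes, 1.024 for O-GalNAc starters, 0.898 for N-glycan branching, 1.16 for fucosyltransferases and 1.18 for sulfotransferases, and 3.43 for O-glycan branching. These sums carry no test. The O-glycan branching sum includes Gcnt2, the I-branching enzyme of lactosamine chains, so 3.43 does not measure O-glycan branching alone. Gcnt1, the core 2 enzyme of O-glycans, differed 1.94-fold. Within classes the make-up differed: St8sia4 made up 32.9% and 36.7% of sialyltransferase RPKM in TRAIL+ and 15.7% and 18.9% in CD49b+ libraries, while St3gal4 made up 8.97% and 9.09% against 21.0% and 18.9%. In the lactosamine class B4galt1 took 32.6% and 33.6% in TRAIL+ and 21.8% and 22.1% in CD49b+ libraries. Fut7 took 0.745% and 0.843% of fucosyltransferase RPKM in TRAIL+ and 5.02% and 7.39% in CD49b+ libraries.

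**Figure D4:**
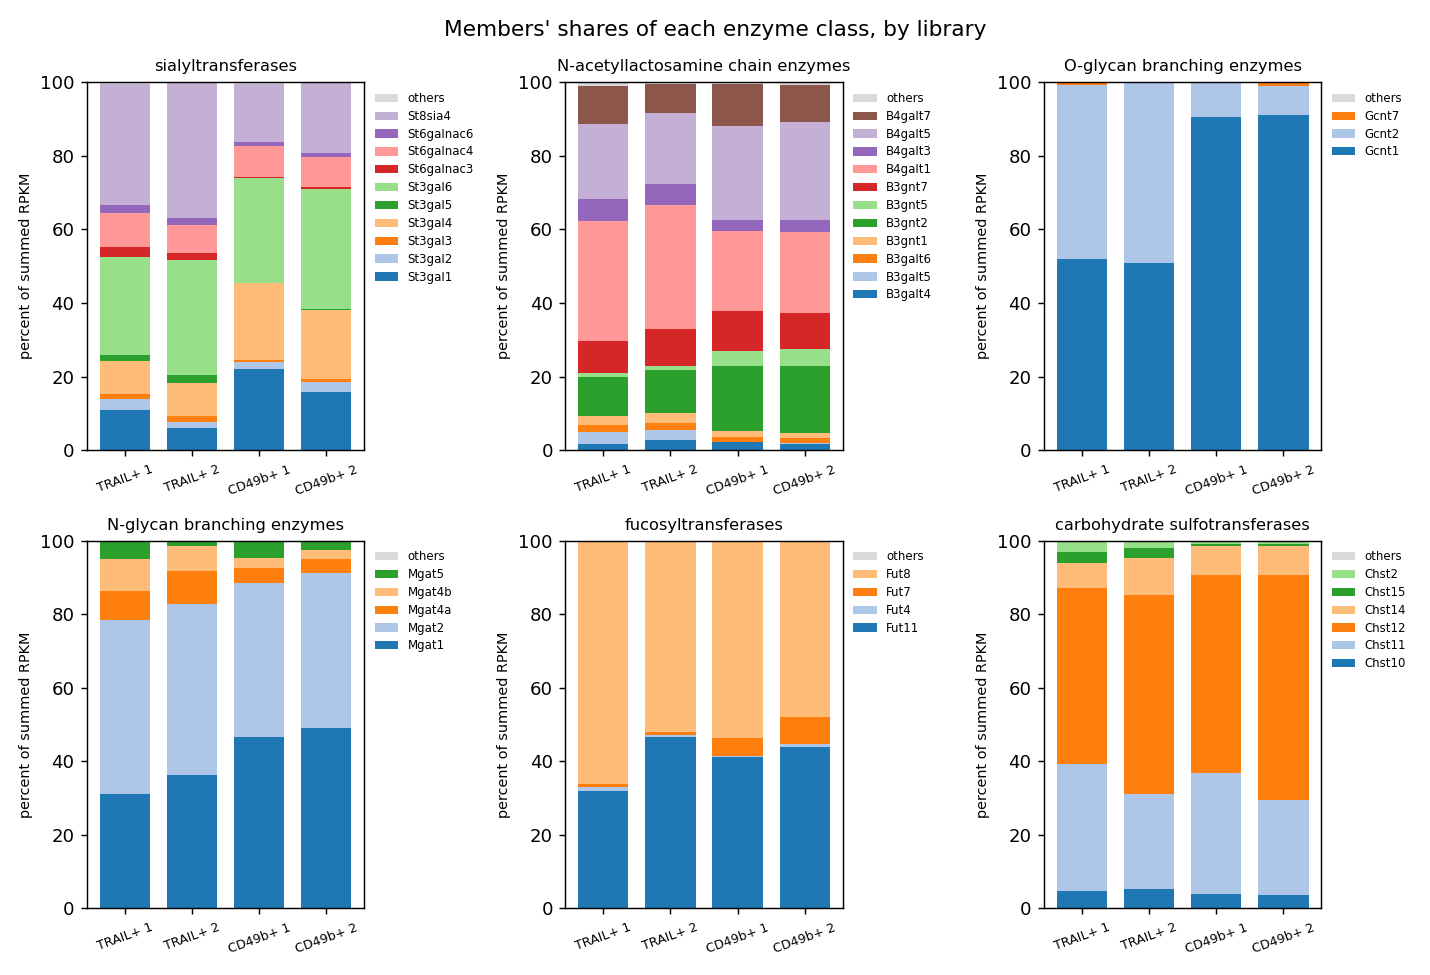
Percent of the summed RPKM of an enzyme class (y axis) taken by its members in each of the 4 libraries (x axis), for 6 classes; colours are genes and grey the other members. Gcnt2 takes 47.4% and 49.1% of the O-glycan branching class in TRAIL+ and 9.53% and 7.81% in CD49b+ libraries, and St8sia4 takes 32.9% and 36.7% of the sialyltransferases in TRAIL+ against 15.7% and 18.9% in CD49b+ libraries.

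Genes that supply or use these enzymes were described from 11 lists with 154 rows, 104 of them tested. In TRAIL+ cells 0 were higher and 8 were lower (7.69%), beside 4.76% higher and 3.86% lower of all genes tested. At an unadjusted p under 0.05 in limma 12 were higher and 22 lower, and voom on recovered reads called 1 higher and 9 lower. The supply of nucleotide sugars passed the test in 1 place. Cmah, which turns the sialic acid Neu5Ac into Neu5Gc before transfer, was at 0.126 and 0.0270 RPKM in TRAIL+ and 7.95 and 6.95 RPKM in CD49b+ libraries, from 6 and 596 reads. Both TRAIL+ libraries were near 0 (log2 difference -2.97 ± 0.22, limma adjusted p = 0.00196), and the ratio of reads per total was 95.6 (exact 95% interval 43.7 to 262). The other 4 tested genes of sialic acid supply, and all tested genes for fucose (10), sulfate (7) and galactose or hexosamine (14) supply, did not pass.

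Among N-glycan processing genes 2 of 15 passed, both of them Golgi mannosidases that act around the Mgat1 step. Man2a1 was at 7.69 and 6.45 RPKM in TRAIL+ and 29.5 and 26.2 RPKM in CD49b+ libraries (log2 difference -1.84 ± 0.19, limma adjusted p = 0.00445). Man1c1 was at 6.13 and 5.87 against 13.0 and 12.9 RPKM (-0.996 ± 0.18, 0.0294), a call lost without CD49b+ replicate 1 (0.325) or replicate 2 (0.303) and with no filter (0.0558). Of 20 tested glycosaminoglycan genes only Ust, which sulfates uronic acid in chondroitin and dermatan, passed. Ust was at 6.24 and 3.57 RPKM in TRAIL+ and 17.6 and 14.2 RPKM in CD49b+ libraries (-1.55 ± 0.28, 0.0298), a call lost without CD49b+ replicate 1 (0.163) or replicate 2 (0.0816) and with no filter (0.0665).

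The list of selectins and their ligands had 2 of 7 tested genes lower in TRAIL+ cells. Among these Spn, the gene of CD43, a heavily sialylated O-glycoprotein, was at 302 and 246 RPKM in TRAIL+ and 689 and 617 RPKM in CD49b+ libraries (log2 difference -1.26 ± 0.20, limma adjusted p = 0.0196), a call lost without CD49b+ replicate 1 (0.316) or replicate 2 (0.209). Selplg, the gene of the P-selectin ligand PSGL-1 that Gcnt1 and Fut7 products decorate, was at 635 and 642 against 998 and 985 RPKM and did not pass (limma adjusted p = 0.151). Among sialic acid and galactose readers Mag, a siglec best known from myelin, alone passed, at 0.403 and 0.866 against 10.4 and 10.9 RPKM (-2.85 ± 0.24, 0.00265), and Lgals1, the gene of galectin-1, did not (345 and 595 against 1143 and 1288 RPKM, limma adjusted p = 0.0543). Of proteoglycan cores Sdc4 passed, at 6.68 and 7.4997 against 15.0 and 16.9 RPKM (-1.07 ± 0.19, 0.0265), but not without CD49b+ replicate 1 (0.202) or replicate 2 (0.314). Srgn, the serglycin core that carries chondroitin sulfate in granules, was at 1135 and 1751 against 622 and 760 RPKM and did not pass (limma adjusted p = 0.113).

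Of the other glycolipid genes, the most abundant on the list were Ugcg and B4galnt1, and neither passed. Ugcg, which makes the glucosylceramide that precedes lactosylceramide, was at 230 and 222 RPKM in TRAIL+ and 287 and 318 RPKM in CD49b+ libraries. B4galnt1, which converts GM3 to GM2 and lactosylceramide to the precursor of asialo-GM1, was at 496 and 487 against 426 and 425 RPKM (log2 difference 0.21, limma adjusted p = 0.658). Its level was above that of each of the 85 enzyme genes in all 4 libraries.

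**Figure D5:**
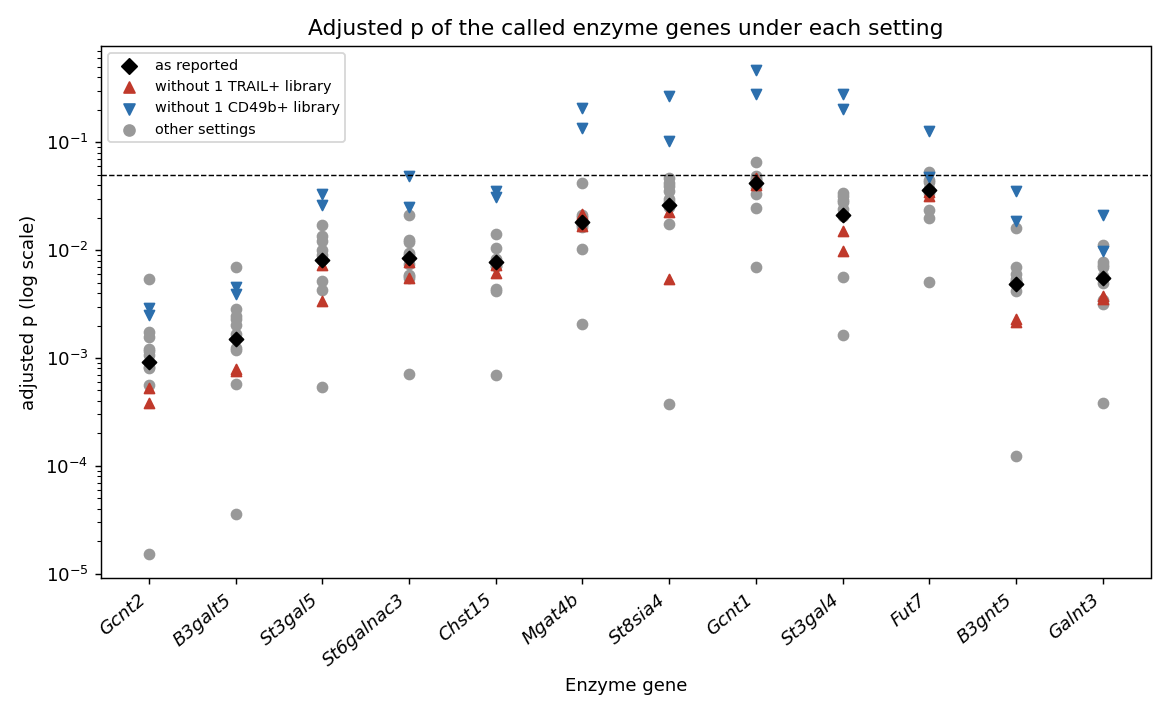
Limma adjusted p (y axis, log scale) of the 12 called enzyme genes (x axis) as reported (black), without 1 TRAIL+ library (red), without 1 CD49b+ library (blue) and under the other settings (grey); the dashed line is at 0.05. Blue symbols of Mgat4b, St8sia4, Gcnt1 and St3gal4 all lie above the line, 1 of Fut7 does, and those of the other 7 genes do not.

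Under every alternative in which they were tested, 7 of the 12 calls were kept: Gcnt2, B3galt5, St3gal5, St6galnac3, Chst15, B3gnt5 and Galnt3. Of these 7 only B3gnt5 was at 1 RPKM or more in all 4 libraries. The others entered the test only through the subset where they were high. St3gal5, Chst15 and Galnt3 were not tested at the minimum of 5 RPKM. The sources used here do not state strand use, so reads of overlapping genes cannot be told apart. Exons in GENCODE M21 that overlap on the opposite strand concern 3 called genes, Gcnt2 (A730081D07Rik and Gm31683), Chst15 (Gm10584) and St3gal4 (4930581F22Rik). The longest overlap on the opposite strand was that of St3gal6, which shares 1603 bases with Dcbld2. On the same strand B3gnt2 shares 2449 bases with Gm28048, and B3gnt1 1142 bases with AC124502.3. Strand use would not separate the reads of these.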

How the data were processed

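The 4 libraries are polyA RNA-seq of NK cells sorted by flow cytometry from mouse liver, with Percoll and lysis of red cells beforehand, per the labels' protocols. The authors deposited RPKM per gene, per the file headers. The submitters' processing notes name TopHat 1.4.1 and build mm9. The counting method, annotation, filters and strand setting were not given in the sources used here. Rows were matched to RefSeq names of GRCm38.p6 (20661 of 21025 by accession, 191 by symbol, 65 by synonym, 108 unmatched). RPKM steps gave whole reads in 99.993% of the 13681 rows above 0 (relative tolerance 1e-06), and 81.1% of 10859 rows with 1 accession came within 10% of their annotated length. The recovered reads served for read totals, exact intervals (counting error only) and limma-voom as an alternative. Some listed zeros may be failed estimates: Rpl26, a ribosomal protein gene, is listed at 0 in all 4 libraries.

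Groups came from the sample titles. Genes that reached 1 RPKM in 2 or more libraries (10047) were tested on log2(RPKM + 1), a scale that understates the change of low genes, with limma 3.58.1 in R 4.3.3 (lmFit, eBayes with a trended prior, 2 residual and 3.51 prior degrees of freedom), coded TRAIL+ minus CD49b+; Benjamini-Hochberg adjusted p under 0.05 is called. Folds are ratios of mean RPKM, larger over smaller. An exact permutation test of 2 against 2 libraries cannot go below p = 0.333 and was not run. The procedure was tested on simulated data, with changes placed only in genes with many expected reads and with libraries drawn independently. That test does not cover low genes such as Fut7, or libraries that deviate together. The members and lists were chosen with earlier results of these data known. Named by rule were all called enzyme genes, the 2 most abundant and the tested one with the largest log2 difference of each class, up to 4 called genes and the most abundant one of each related list, and the 2 most abundant genes of each cell type list; any other gene was named after its values were seen, and 1 gene the rule took is not reported here. The lists cover sialic acid, fucose, sulfate, and galactose and hexosamine supply, sialidases, other O-glycan and ganglioside enzymes, N-glycan processing, glycosaminoglycans, selectins, siglecs and galectins, and proteoglycan cores, and markers of NK, T, B, Kupffer, dendritic, endothelial and red cells, neutrophils and hepatocytes. Alternatives were other pseudocounts, filters, scalings and priors, voom, a gene length correction, the replicate number as a term, and each library left out.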

Additional observations from a re-analysis of the deposited data

How the results depend on the processing

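No alternative reversed the direction of a called value. Replicate numbers came from the titles, which do not say that same-numbered samples share a source; same-numbered libraries deviated together (Pearson r = 0.56 across 10047 genes, which are not independent replicates, with 2 pairs only). With the replicate block, calls over all genes were 1049 higher and 833 lower (478 and 388 without it), enzyme calls 13 and 8 (8 and 4), and related pathway calls 12 and 19 (0 and 8). With 1 library left out, where a lone sample is assumed to vary like the other subset, all-gene calls ranged from 245 to 777 higher and 198 to 763 lower, enzyme calls from 5 to 9 higher and 2 to 6 lower, and related calls from 0 to 2 higher and 4 to 14 lower; the low ends came without a CD49b+ library and the high ends without a TRAIL+ library. The length correction gave 593 lower calls over all genes and 5 higher and 15 lower among related genes. A minimum of 5 RPKM left 2 enzyme genes called lower, since genes below it were not tested. Median shift, quantile normalization, no trend and voom each called 1 related gene higher. The summed RPKM of O-GalNAc starters changed sign within its spread, from a log2 ratio of 0.03 to -0.03 without TRAIL+ replicate 1. Low genes such as Fut7 rest on few reads, and a listed 0 sets no floor here.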

Other observations

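Of the 45 tested enzyme genes, 33 (73.3%) had the same sign of the difference between replicate 1 and replicate 2 in both subsets, beside 72.0% of all 10047 tested genes, so the enzymes were near the background in this. The labels tie the replicate numbers to no shared source, and there are 2 pairs only. In 8 of the 33 that difference exceeded the one between subsets. Mgat5, the beta-1,6 branching enzyme of N-glycans, had the largest such difference, with replicate 1 above replicate 2 by 1.39 in TRAIL+ and 0.66 in CD49b+ cells on the log2(RPKM + 1) scale. St3gal1 (0.66 and 0.42) and Galnt6 (0.54 and 0.44) came next. These genes were named after their values were seen.

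Some genes outside the enzyme families stood apart in level without passing the test. Xylt2, which starts glycosaminoglycan chains, was at 30.2 and 19.9 RPKM in TRAIL+ and 11.8 and 10.2 RPKM in CD49b+ libraries. Gpc1, the gene of the glypican-1 core, was at 77.2 and 54.4 RPKM in TRAIL+ and 132 and 117 RPKM in CD49b+ libraries. They too were named after their values were seen.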
